A study of Mus musculus with 4 samples.

Results

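The 42 genes described here drive or mark cell division, from the D-type cyclins that open G1 to the motors and kinases of mitosis. They were chosen by symbol from a list of cell cycle and proliferation genes, and all 42 were found once each among the 50593 genes of the table. Sciatic nerves of 4 mice of strain 129S1/SvImJ were sequenced, 2 of them HSF V30M and 2 HSF WT, all 6 months old. HSF V30M mice carry the human TTR V30M transgene, a transthyretin variant that deposits in peripheral nerve, on a background without the endogenous Ttr gene. HSF WT mice carry no transgene, and both groups carry a heterozygous deletion of Hsf1, the gene of heat shock factor 1, so neither is a plain wild type. The sources used here do not name the promoter of the transgene. The comparison asks how the cell cycle genes of the nerve differ between the amyloid model and its control, and the table gives 1 FPKM value (fragments scaled to transcript length and library size) per gene and group. It holds no value per mouse. The spread between mice is therefore unknown, and no difference below was tested against it.

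A dividing cell passes through G1, in which D-type cyclins and then cyclin E release the E2F factors from the retinoblastoma proteins. In S phase the MCM helicase unwinds DNA and enzymes of nucleotide supply feed the polymerases, and in G2 and mitosis CDK1 with cyclins A and B drives chromosome condensation, spindle assembly and separation. Adult nerve is mostly made of cells that have left the cycle: myelinating Schwann cells stop dividing after development and enter the cycle again after injury, while endothelium, fibroblasts, macrophages and lymphocytes renew slowly.

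Of the genes set by the design, Hsf1 stood at 7.94 FPKM in HSF V30M and 15.0 in HSF WT, and mouse Ttr at 6.10 against 0. The Ttr value goes against the null allele of the group labelled HSF V30M, and the Hsf1 values differ although the same heterozygous deletion is given for both groups. Whether reads of the human transgene were assigned to the mouse gene was not tested, nor was the source of the Hsf1 difference, so every direction below is that of the groups as labelled. All 7 Schwann cell markers passed a mean FPKM of 1. Low values of single-transcript genes fell on the worth of 1 fragment, which placed the libraries of a group 1.18-fold apart in depth in HSF V30M and 1.35-fold in HSF WT. From this step the number of fragments behind each value was estimated. A difference in a whole nerve can come from fewer cells of a type or from less RNA per cell, which cannot be told apart here.

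Most cell cycle genes were present at low level. Of the 42 members, 7 had a mean FPKM of at least 10, 24 lay between 1 and 10, and 11 were under 1. The most abundant was Stmn1, which encodes stathmin 1, a microtubule-destabilizing protein also made by neurons and glia that do not divide. It reached 209.6 FPKM in HSF V30M and 162 in HSF WT, place 494 among the 15620 genes whose mean FPKM reached 1. Next came the 3 D-type cyclins and the replication clamp Pcna. Mki67, the antigen used to count dividing cells, held 1.31 FPKM in HSF V30M and 1.88 in HSF WT, place 14028 of 15620. By FPKM, which is per length, Stmn1 stood 160-fold above Mki67 in HSF V30M and 86.2-fold in HSF WT. The inhibitor gene Cdkn1a also stood far above Mki67, by 96.5-fold within HSF V30M and 82.6-fold within HSF WT. No member was at 0 in either group. The 11 members under a mean of 1, with values from 0.203 to 0.971 FPKM, were Ccne2, Ccnb1, Ccnb2, Plk1, Bub1, Bub1b, Cenpe, Cenpf, Kif11, Kif20a and Nusap1, and 10 of them act in G2 or mitosis.

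**Figure D1:**
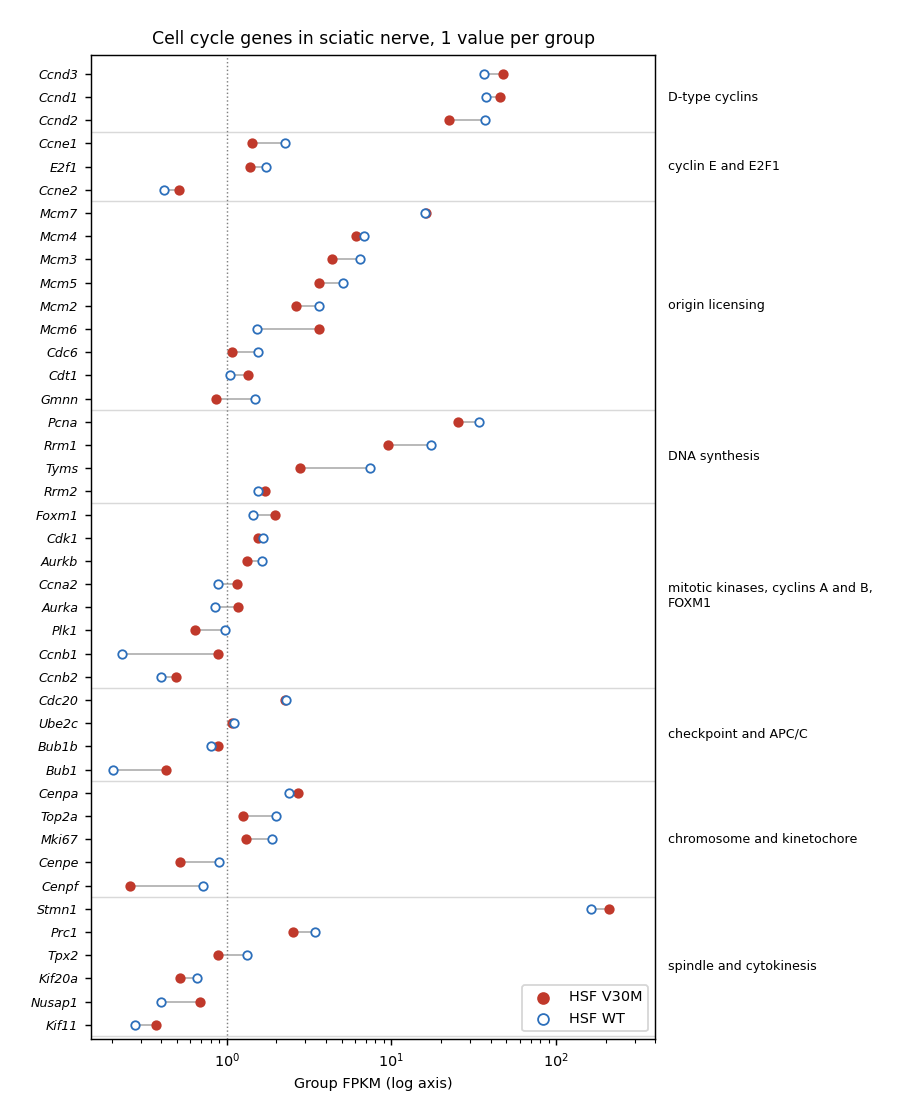
FPKM of each of the 42 members on a log axis, grouped by role, with the HSF V30M value as a filled red point, the HSF WT value as an open blue point and a grey line between them. The dotted line marks 1 FPKM. Stmn1 lies at the far right, the D-type cyclins and Pcna near or above 22, and most mitotic genes close to 1.

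Many members of S phase and of G2 and mitosis shared letters in their promoters. RefSeq promoter windows of 300 bases (250 before and 50 after the start, build GRCm38.p6) were matched for 31 of the 42 members and for 27025 genes in all, with 1 window for each gene. The windows were searched on both strands for the CHR motif TTTGAA, bound by the MuvB complexes that repress or activate genes of G2 and mitosis, for the CCAAT box CCAAT, bound by NF-Y, and for the E2F motif in the form TTTGGCG, in the form TTTGCCG, in the form TTTCGCG or in the form TTTCCCG. The CHR motif was in 13 of 17 members of G2 and mitosis (76.5%), in 1 of 11 members of S phase and in 18.1% of all promoters. The E2F motifs were in 6 of 11 members of S phase (54.5%), in 2 of 17 of G2 and mitosis and in 6.85% of all promoters. The CCAAT box was in 24 of 31 members (77.4%), against 37.9% of all promoters. None of the 3 matched G1 members, of 6 in all, held any of these motifs, but these are too few to set beside the other shares. These are matches of letters, not sites shown to be bound. Aurkb, Ccna2, Ccnd1, Ccnd2, Ccne2, Foxm1, Gmnn, Kif20a, Mcm4, Stmn1 and Tpx2 had no entry.

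Shown next are the 250 bases before the start for Mki67 (chr7:135716380-135716629, minus strand) and Ccnb2 (chr9:70421555-70421804, minus strand), which hold CHR and CCAAT letters, and for the 3 members whose difference between groups passed the fold used here and which had an entry, Mcm6 (chr1:128359706-128359955, minus strand), Rrm1 (chr7:102441445-102441694, plus strand) and Tyms (chr5:30073626-30073875, minus strand). Each runs 5′ to 3′ on the strand of its gene, and capitals mark matches to any of the 3 kinds of motif on either strand.
Mki67: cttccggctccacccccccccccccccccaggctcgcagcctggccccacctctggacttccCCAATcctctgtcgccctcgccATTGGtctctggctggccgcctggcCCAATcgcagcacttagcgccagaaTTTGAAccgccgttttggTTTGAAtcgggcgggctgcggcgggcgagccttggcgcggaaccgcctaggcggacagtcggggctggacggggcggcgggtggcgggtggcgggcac
Ccnb2: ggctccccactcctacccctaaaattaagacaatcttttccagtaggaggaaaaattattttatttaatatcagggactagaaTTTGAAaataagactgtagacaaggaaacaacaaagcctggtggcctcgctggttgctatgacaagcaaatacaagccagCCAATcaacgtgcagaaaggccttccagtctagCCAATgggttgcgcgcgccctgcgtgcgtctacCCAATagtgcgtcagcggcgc
Mcm6: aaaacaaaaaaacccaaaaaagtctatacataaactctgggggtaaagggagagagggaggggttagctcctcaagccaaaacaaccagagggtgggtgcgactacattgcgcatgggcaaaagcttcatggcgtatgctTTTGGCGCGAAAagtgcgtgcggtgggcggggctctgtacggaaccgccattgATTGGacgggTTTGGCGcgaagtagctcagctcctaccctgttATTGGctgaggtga
Rrm1: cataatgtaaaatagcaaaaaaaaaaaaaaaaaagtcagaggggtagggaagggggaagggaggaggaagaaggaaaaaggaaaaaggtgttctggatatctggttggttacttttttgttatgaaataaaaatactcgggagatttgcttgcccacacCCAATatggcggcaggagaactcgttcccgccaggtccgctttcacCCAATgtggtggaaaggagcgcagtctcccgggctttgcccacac
Tyms: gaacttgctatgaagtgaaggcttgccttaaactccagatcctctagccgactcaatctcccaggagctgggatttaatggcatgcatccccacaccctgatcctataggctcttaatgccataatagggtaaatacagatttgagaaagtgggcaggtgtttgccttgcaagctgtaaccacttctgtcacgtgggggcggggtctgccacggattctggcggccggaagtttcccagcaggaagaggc
Mki67 held CHR letters at positions -116 and -98 from the start, and Ccnb2 had a further match at position 4, just past the printed stretch. Mcm6 held E2F letters at -110, -105 and -47, the first pair overlapping. Rrm1 held the CCAAT box alone, at -91 and -45, and Tyms none of the motifs, which says only that these letters are not in its window.

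Between the groups, most members did not differ past the fold used here. Ratios were taken as log2((HSF V30M + 1) / (HSF WT + 1)), a scale that understates the difference of low genes, and a gene was counted as past the fold at 1.5-fold or more on this scale if its mean FPKM reached 1. Of the 31 members that passed this minimum, 1 was higher in HSF V30M past the fold, Mcm6, against 8.22% of all 15620 genes. In the other direction 3 were lower, Tyms, Rrm1 and Ccnd2, against 8.44% of all genes. Among the 5415 genes averaging 1 to under 5 FPKM, the range that holds most members, 10.2% were higher past the fold, 12.4% lower past it and 50.5% lower by any amount. Among the 10205 genes averaging 5 or more these shares were 7.17%, 6.33% and 49.1%. Tyms, Rrm1 and Ccnd2 all averaged over 5 FPKM, where they were 3 of the 10 members of that level, beside 6.33% of all such genes. Tyms, with a mean of 5.09, reached that level only through HSF WT (7.38, against 2.79 in HSF V30M). Mcm6 was 1 of the 21 members averaging 1 to under 5, and no member of that level was lower past the fold. With so few genes and no values per mouse these shares are a description. By any amount, 20 members were lower in HSF V30M and 11 higher, while 49.6% of all genes were lower. Their median log2 ratio was -0.18, and that of all genes was 0.003. The 13 members of S phase had a median of -0.35, with 9 lower and 4 higher. The 13 of 23 members of G2 and mitosis that passed the minimum had a median of -0.02, with 8 lower and 5 higher.

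**Figure D2:**
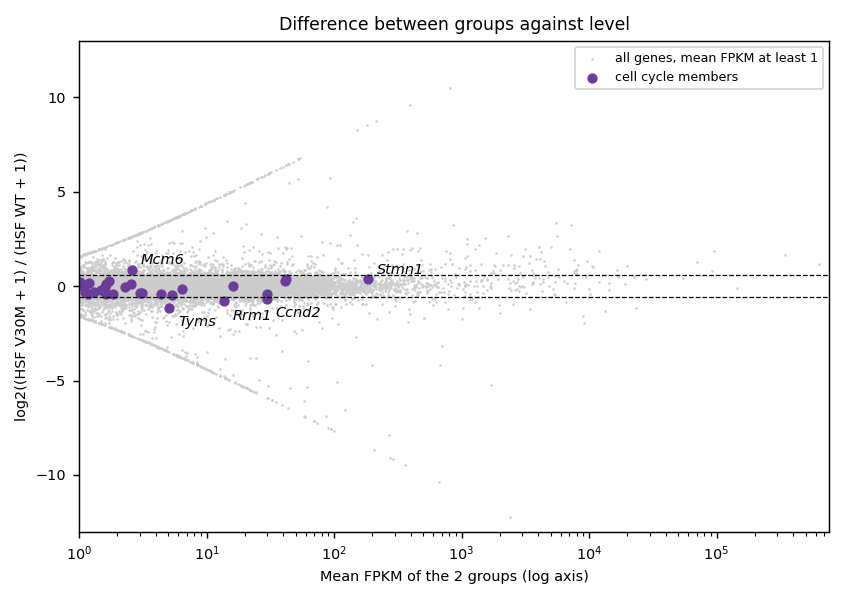
Each member's log2((HSF V30M + 1) / (HSF WT + 1)) against its mean FPKM (purple points), over all genes whose mean reached 1 FPKM (grey), with dashed lines at 1.5-fold. The axes span all of these genes. Of the members, Mcm6 lies above the upper line and Tyms, Rrm1 and Ccnd2 below the lower one.

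The D-type cyclins, which couple growth signals to CDK4 and CDK6, did not share a direction. Ccnd1 held 45.6 FPKM in HSF V30M and 37.4 in HSF WT, and Ccnd3 47.5 and 36.3, so both were higher in HSF V30M, by 1.22-fold and 1.31-fold. Ccnd2 (chr6:127125162-127152193, minus strand) went the other way, with 22.4 FPKM in HSF V30M against 36.8 in HSF WT, a log2 ratio of -0.70. In HSF WT the D-type cyclins were nearly level, between 36.3 and 37.4 FPKM. All 3 share exon bases with a neighbouring gene in the annotation, Ccnd2 with 9330179D12Rik and Gm43126, and the sources used here do not say whether strand was used in counting. Cyclin E, the partner of CDK2 at entry into S phase, was low. Ccne1 held 1.42 FPKM in HSF V30M and 2.25 in HSF WT, and Ccne2 0.51 and 0.419. E2f1, the factor that switches on S phase genes, held 1.38 and 1.74.

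The genes of origin licensing, by which the MCM2-7 helicase is loaded on DNA ahead of replication, split within 1 complex. Among the 6 subunits of that helicase, Mcm6 alone was past the fold (chr1:128331590-128359664, minus strand). It held 3.66 FPKM in HSF V30M and 1.52 in HSF WT, 2.4-fold higher in HSF V30M, with a log2 ratio of 0.88. The other subunits ran level or the other way. Mcm2 held 2.62 in HSF V30M and 3.63 in HSF WT, Mcm3 4.36 and 6.46, and Mcm5 3.63 and 5.08. Mcm4 held 6.08 and 6.80, and Mcm7 16.2 and 15.9. The subunits act in equal number in the helicase, but their RNA did not stand level: Mcm7 was 4.44-fold over Mcm6 in HSF V30M and 10.4-fold in HSF WT. Mcm7 shares exon bases with Ap4m1, Cops6 and the microRNA genes Mir25 and Mir93, so its level is uncertain. Of the loaders, Cdc6 held 1.08 in HSF V30M and 1.56 in HSF WT, and Cdt1 1.34 and 1.05. Gmnn, the gene of geminin, which blocks CDT1 after origins have fired, held 0.86 and 1.48.

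On the log2(FPKM + 1) scale, Tyms and Rrm1, both of DNA synthesis, had the most negative ratios of the members. By the plain FPKM ratio the low gene Cenpf, 2.75-fold higher in HSF WT, went past both. Tyms (chr5:30058202-30073617, minus strand) encodes thymidylate synthase, which makes the thymidine nucleotide. It held 2.79 FPKM in HSF V30M and 7.38 in HSF WT, 2.65-fold higher in HSF WT, or a log2 ratio of -1.15. Rrm1 (chr7:102441695-102469771, plus strand) encodes the large subunit of ribonucleotide reductase, which makes deoxynucleotides. It held 9.59 FPKM in HSF V30M and 17.5 in HSF WT, a log2 ratio of -0.81. Rrm2, the small subunit that is made in S phase, did not go with it, holding 1.70 and 1.54. By FPKM, Rrm1 stood 5.64-fold over Rrm2 in HSF V30M and 11.4-fold in HSF WT. Pcna, the sliding clamp of the polymerases, held 25.3 in HSF V30M and 33.9 in HSF WT, a log2 ratio of -0.41 that is short of the fold. The processed copy Pcna-ps2 held 1.71 and 1.96, so the reads of Pcna may be split. Summed over the 4 genes, DNA synthesis held 39.4 FPKM in HSF V30M and 60.3 in HSF WT.

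The kinases and cyclins of mitosis were close to the limit of what these libraries resolve, and none passed the fold with a mean of at least 1. Cdk1, the kinase that drives mitosis, held 1.54 FPKM in HSF V30M and 1.65 in HSF WT. Its partner Ccna2 held 1.16 and 0.889. Foxm1, the factor that switches on genes of G2 and mitosis, held 1.97 and 1.45. Aurka, a kinase of the spindle poles, held 1.17 and 0.844, and Aurkb, the kinase of the chromosomal passenger complex, 1.33 and 1.63. The median log2 ratio of the 5 genes of this role that passed the minimum was 0.19, and it turned to -0.06 without those that share exon bases with another gene (Ccna2 and Foxm1). Below the minimum, Ccnb1, the cyclin that brings CDK1 to full activity, held 0.89 in HSF V30M and 0.233 in HSF WT. These values stand for about 19 to 52 fragments against 4 to 11. Ccnb2 held 0.49 and 0.40, under its pseudogene copy Ccnb2-ps at 2.30 and 1.49, so its level is uncertain. Plk1, a kinase of centrosomes and kinetochores, held 0.64 and 0.971.

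The genes of the spindle checkpoint and of the anaphase-promoting complex were level where they passed the minimum. Cdc20, an activator of that complex, held 2.26 FPKM in HSF V30M and 2.30 in HSF WT. Ube2c, the enzyme that hands it ubiquitin, held 1.07 and 1.10. Both share exon bases with another gene, Cdc20 with Elovl1 and Ube2c with Tnnc2, so their levels are uncertain. The checkpoint kinase Bub1 held 0.43 and 0.203, and Bub1b 0.88 and 0.804.

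Among the genes of chromosomes and kinetochores, 2 of the 3 that passed the minimum had the lower value in HSF V30M. Of all genes past the minimum, 49.6% did. With Cenpe and Cenpf, which were under the minimum, it was 4 of 5. Mki67 (chr7:135689784-135716361, minus strand) had a log2 ratio of -0.32, on about 280 to 331 fragments in HSF V30M and 286 to 386 in HSF WT. Top2a, the topoisomerase that untangles sister chromatids, held 1.25 FPKM in HSF V30M and 2.0 in HSF WT (log2 ratio -0.41). The motor Cenpe held 0.52 and 0.897, and Cenpf, a large protein of the outer kinetochore, 0.26 and 0.715. Cenpa, the histone variant that marks centromeres, was the exception at 2.72 and 2.40.

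The genes of the spindle and of cytokinesis went both ways. Stmn1 had a log2 ratio of 0.37 with the higher value in HSF V30M. Prc1, which bundles microtubules of the midzone, held 2.52 FPKM in HSF V30M and 3.46 in HSF WT, and Tpx2, an activator of Aurora A on the spindle, 0.88 and 1.33. Below the minimum, the motor Kif11 held 0.37 and 0.279, the motor Kif20a 0.52 and 0.663, and Nusap1, a microtubule-binding protein, 0.69 and 0.397.

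Counting error alone was set beside each ratio as a 95% exact (Clopper-Pearson) interval on the lowest number of fragments that fits each value. It covers counting error only and says nothing of the spread between mice. Among the 31 members with a mean of at least 1, the interval of the ratio of HSF V30M over HSF WT lay above 1 for 4, Ccnd1, Ccnd3, Mcm6 and Stmn1, against 26.2% of 12695 coding genes. It lay below 1 for 12, against 24.9% of coding genes: Ccnd2, Ccne1, Mcm2, Mcm3, Mcm5, Pcna, Rrm1, Tyms, Mki67, Top2a, Tpx2 and Prc1. For the other 15 members the interval held 1. As it rests on the lowest fitting number of fragments, it is also wide where transcript lengths differ, not by depth alone. For Cenpa, for example, 9 to 88 fragments fit in HSF V30M and 5 to 63 in HSF WT. The shares of coding genes are over every level from a mean of 1 up. Intervals are wider at low level, where most members lie, and no share by level was computed. The interval of Tyms ran from 0.313 to 0.454 on about 179 to 212 fragments in HSF V30M and 338 to 455 in HSF WT. That of Rrm1 ran from 0.498 to 0.601, that of Ccnd2 from 0.528 to 0.698 and that of Mcm6 from 1.81 to 3.23. For Mki67 it ran from 0.588 to 0.824. For Cdk1 it ran from 0.55 to 1.61, which holds both a lower and a higher level. Of the 11 members under the minimum, Ccnb1 (1.27 to 15.4) and Bub1 (1.01 to 4.85) lay above 1 and Cenpe (0.432 to 0.777) and Cenpf (0.263 to 0.498) below it. The share of all genes under the minimum with such intervals was not computed, so these have no share to be set against.

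**Figure D3:**
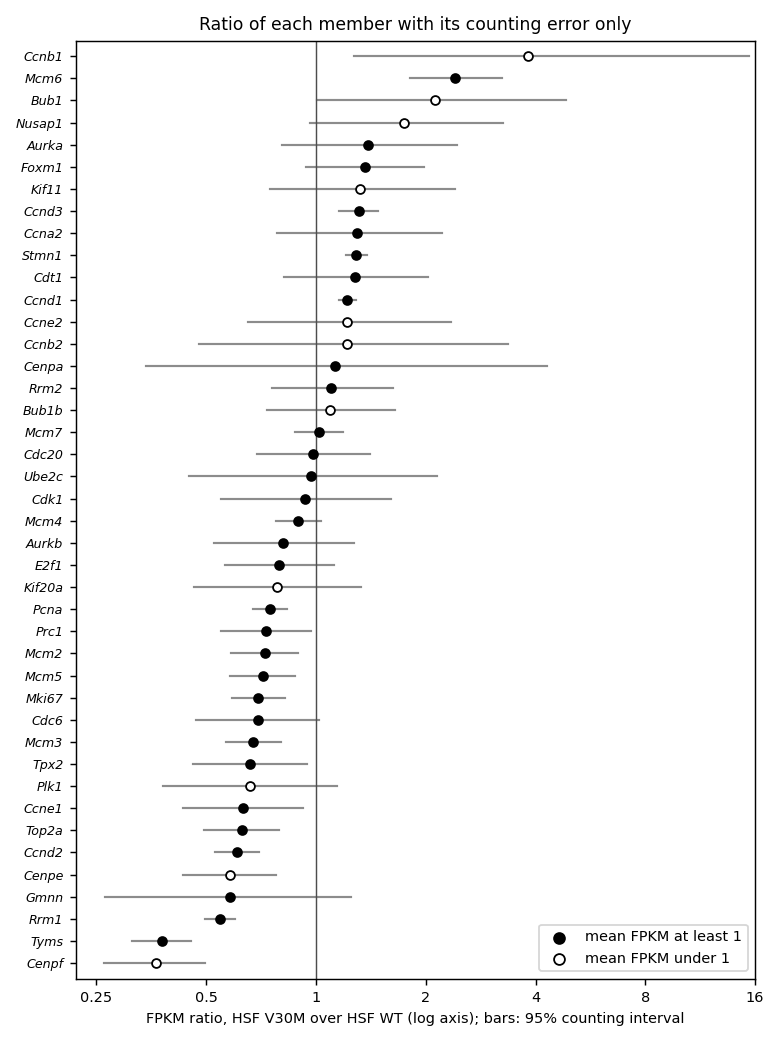
FPKM ratio of HSF V30M over HSF WT for the 42 members on a log axis, in order of the ratio, with 95% counting intervals as bars; filled points have a mean FPKM of at least 1. Intervals are widest for genes with few fragments such as Ccnb1 and for Cenpa, and narrow for Ccnd1, Stmn1 and Rrm1.

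Beyond the members, 109 further cell cycle genes were in the table, of which 76 had a mean FPKM of at least 1. Past the fold, 4 were higher in HSF V30M and 3 lower, and their median log2 ratio was -0.03, beside 8.22% and 8.44% of all genes and a median of 0.003. The higher ones were Pttg1, Pold1, Rfc5 and Cdc25b. Pttg1 (chr11:43420250-43426251, minus strand) encodes securin, which holds back separase until anaphase. It held 27.1 FPKM in HSF V30M and 1.57 in HSF WT, 17.2-fold higher in HSF V30M. The counting interval of this ratio ran from 9.47 to 35.0. Its log2 ratio of 3.45 was far from that of the other 14 further mitosis genes with a mean of at least 1, which ran from -0.49 to 0.45. Pold1, the catalytic subunit of polymerase delta, held 7.29 and 3.95, and Rfc5, a subunit of the clamp loader, 8.46 and 4.89. Of these, Pttg1 and Pold1 share no exon bases with another gene, Rfc5 shares some with Wsb2 and Cdc25b with Spef1. Cdc25b, a phosphatase that activates CDK1, held 13.5 and 8.53.

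The lower ones were Cdkn2a, E2f3 and Cks2. Cdkn2a, which encodes the inhibitors p16INK4a and p19ARF, held 5.23 FPKM in HSF V30M and 9.69 in HSF WT. E2f3, an activating E2F factor, held 2.48 and 4.79, and Cks2, a small CDK-binding protein, 0.48 and 1.87, the former on about 5 to 6 fragments. None of the other 6 inhibitors of cyclin-dependent kinases passed the fold. Cdkn1a, the gene of p21, held 126.4 FPKM in HSF V30M against 155 in HSF WT. Cdkn1b, the gene of p27, held 78.6 in HSF V30M and 80.3 in HSF WT, and Cdkn1c, the gene of p57, 55.1 and 53.3. Of the RB family, Rb1 held 14.7 and 15.1 and Rbl2 20.8 and 20.6. Among the 26 further replication genes that passed the minimum, 13 had the lower value in HSF V30M and 13 the higher, and their median was -0.03.

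**Figure D4:**
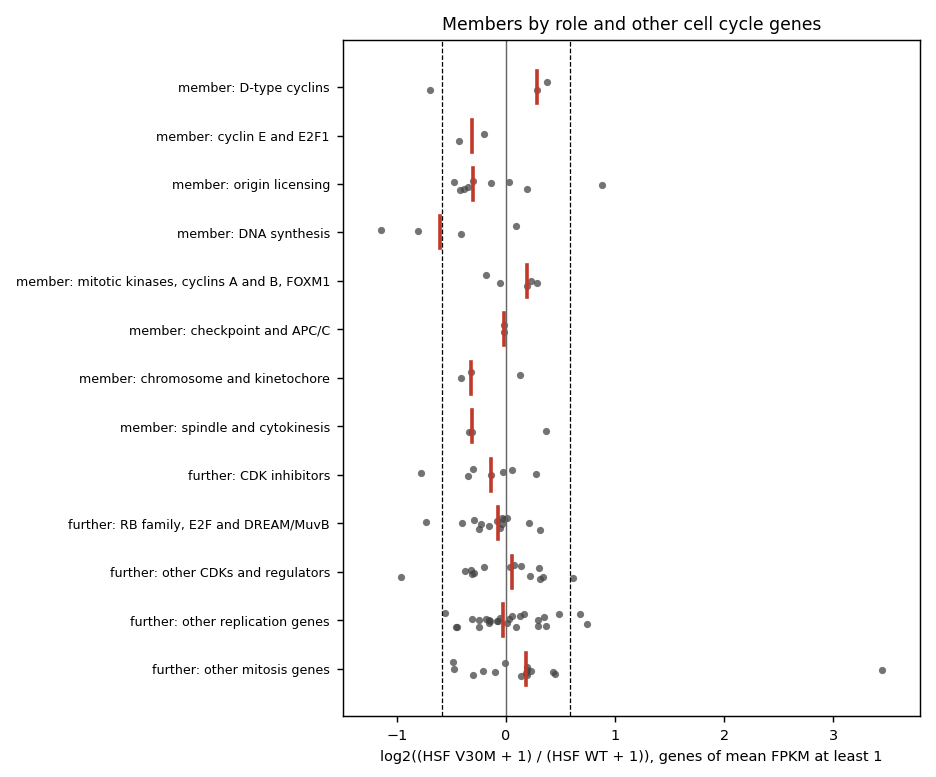
log2((HSF V30M + 1) / (HSF WT + 1)) of the members by role and of further cell cycle genes by list, for genes whose mean reached 1 FPKM; each point is a gene, red bars are medians and dashed lines mark 1.5-fold. The medians lie between -0.61 for DNA synthesis and 0.28 for D-type cyclins, and Pttg1 stands alone at 3.45.

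Markers of several cell types differed between the groups beside the cell cycle genes. Of all genes past the minimum, 8.22% were higher in HSF V30M past the fold and 8.44% lower, the shares to set beside the counts that follow. Of the B cell list, 4 of 4 genes past the minimum were lower in HSF V30M past the fold, and the summed level of its 6 genes was 2.69 FPKM in HSF V30M and 22.7 in HSF WT. Cd79b, a chain of the B cell receptor, held 0.53 and 7.16. Of the T cell list, 4 of 4 were lower, with sums of 3.62 and 15.9 over 7 genes. By any amount 6 of the 7 were lower in HSF V30M. Cd3d was the exception at 0.51 and 0.486. Cd3g held 0.26 and 0.364, with a counting interval of the ratio from 0.164 to 3.1. In the B cell and T cell lists, of the genes past the minimum only Cd2 was over 1 FPKM in HSF V30M (1.22). The others passed it through HSF WT. The macrophage list summed to 150.0 and 199 over 6 genes, with 1 of 6 lower past the fold, Cd68. Skeletal muscle markers were lower in 5 of 5, with sums of 38.6 and 143, and adipocyte markers in 3 of 5, with sums of 1130 and 1730. Neutrophil markers were higher in HSF V30M in 6 of 6, with sums of 104 and 26.3, and erythroid markers in 3 of 4, with sums of 138 and 45.3 over 6 genes. Marrow progenitor markers summed to 9.24 and 6.27, a sum led by Kit at 4.05 and 4.42. Only 2 of the 6 passed the minimum, neither past the fold, while 5 of 6 had the higher value in HSF V30M. Below the minimum, Mpo, a granule enzyme of myeloid precursors, held 1.85 FPKM in HSF V30M against 0.14 in HSF WT, with a counting interval of the ratio from 5.44 to 41.6, and Elane held 0.78 and 0.0826. Germinal centre B cell markers summed to 9.87 and 7.60, with 2 of 5 past the minimum and none past the fold. Of the Schwann cell markers, 1 of 7 was higher past the fold and none lower. By any amount 5 were higher in HSF V30M and 2 lower, with a median log2 ratio of 0.30, while 49.6% of all genes were lower. The 5 fibroblast markers summed to 1990 and 1950, none past the fold. The fibroblast and endothelial lists had medians of 0.01 and -0.02, and no keratinocyte marker reached a mean of 1. In the endothelial list 1 of 5 was higher past the fold. Of all these markers, 3 were listed at 0 in HSF WT, Ms4a3 of the marrow progenitor list and Krt5 and Krt15 of the keratinocyte list, and none at 0 in HSF V30M. The part of these cell types in the values of Tyms, Rrm1, Ccnd2, Mcm6 and the other members was not tested.

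**Figure D5:**
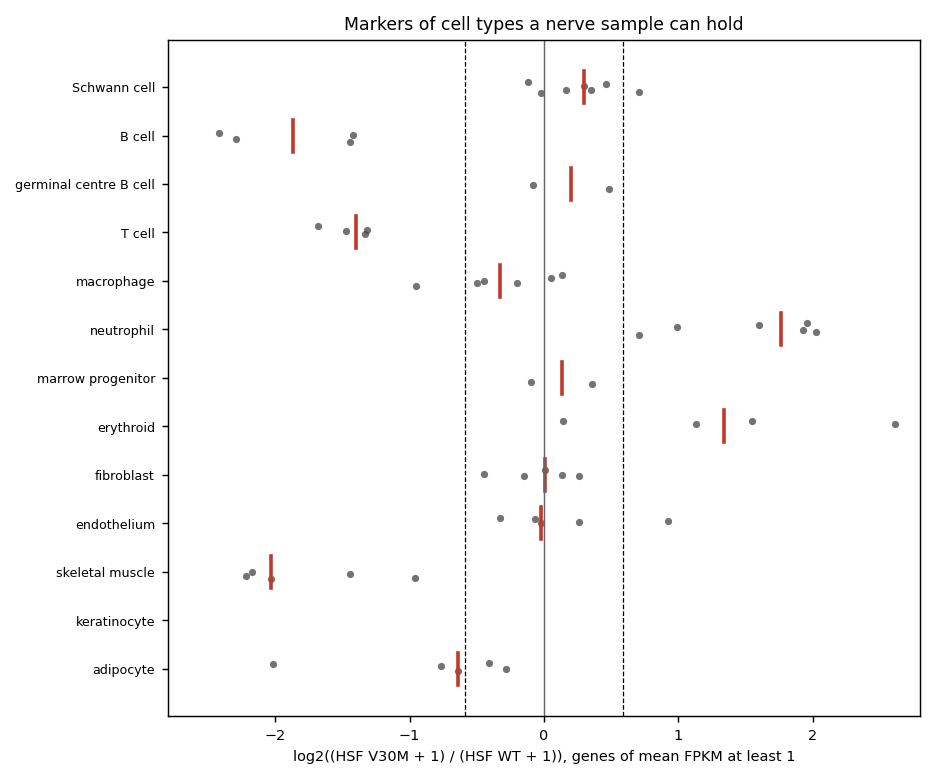
log2((HSF V30M + 1) / (HSF WT + 1)) of cell type markers with a mean FPKM of at least 1; each point is a gene, red bars are medians and dashed lines mark 1.5-fold. B cell, T cell and skeletal muscle markers lie left of -0.96 or at it, and neutrophil markers at 0.71 or right of it.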

How the data were processed

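Total RNA of sciatic nerve was made into double-stranded cDNA and Ion Torrent libraries and aligned to GRCm38, the C57BL/6J reference, by the authors. The submitters' processing notes name STAR, Cufflinks and Cuffdiff, with versions not given in the sources used here. The deposited table holds 1 FPKM value per gene and group, the authors' estimate over the 2 mice the labels give for each group. It also holds the authors' own comparison (fold change, statistic, p-value, q-value and call), which was not used. For 23 genes no estimate was given, and they were left out.

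Members, gene lists and marker lists were chosen with earlier results of these data known. The genes named are all members, further cell cycle genes past the fold (at most 4 a list), at most 3 markers a list by highest mean, and genes set by the design. Values of members averaging under 1 FPKM, and Cdkn1a, Cdkn1b, Cdkn1c, Rb1, Rbl2, Wsb2, Spef1, Elovl1, Tnnc2, Mpo, Elane, Cd3d, Cd3g, Ccnb2-ps, Pcna-ps2 and the markers listed at 0, fall outside that rule and were chosen after their values were seen. Also outside it are 9330179D12Rik, Gm43126, Ap4m1, Cops6, Mir25 and Mir93, named only as genes that share exon bases with a member. Ratios used a pseudocount of 1, a minimum mean FPKM of 1 and a fold of 1.5. With 1 value per group no test was possible. Fragment numbers were estimated as FPKM times transcript length less 200 bases (GENCODE annotation of GRCm38) over the worth of 1 fragment. In HSF WT, 98.0% of 789 low values of single-transcript genes fell within 1% of 1 fragment, and in HSF V30M 96.9% of 327 within rounding. The ranges of fragments cover the shortest and longest coding transcript and both libraries. Of the 42 members, 15 share exon bases with another gene. Scripts (Python 3.11.15, pandas 2.3.3, scipy 1.17.1) were tested on simulated data. Alternatives were another pseudocount, minimum and fold, a median-of-ratios scaling, and, added after seeing the data, no pseudocount and genes free of shared exon bases. The level of 1 marker gene, and the sum that holds it, are not reported here.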

Additional observations from a re-analysis of the deposited data

How the results depend on the processing

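No paired analysis was possible because no per-mouse values were given, and leaving out each mouse could not be run for the same reason. Of 163 values recomputed under an alternative, 121 stayed within a tolerance and 42 moved further. The tolerance was 0.1 (log2) for medians, 1.5-fold for counts and the mean arm of the counting interval (log2) for single genes. Only single genes past the fold could be counted as reversed, and 0 were. A new pseudocount, minimum, fold or exon filter cannot turn the sign of a gene, so this count says little. Some of the 121 were fixed in advance, as a change of fold leaves every median and ratio as it was. Scaling by the median of ratios moved none, but its factors were 1.001 for HSF V30M and 0.999 for HSF WT, so it could change little. With a pseudocount of 0.1, 6 members were lower past the fold, their median was -0.28, and 7 further cell cycle genes were higher and 6 lower; the medians were -0.47 for cyclin E and E2F1, -0.45 for licensing, 0.35 for mitotic kinases, -0.49 for chromosomes and -0.44 for the spindle. With no pseudocount (chosen after seeing the data) these were 7, -0.30, 7, 6, -0.50, -0.47, 0.38, -0.52 and -0.46. Without the minimum, 2 members were higher past the fold and 5 further genes lower, and the medians were -0.20 for cyclin E and E2F1 and -0.02 for the spindle. With a minimum of 5, 10 members were kept, 0 higher past the fold, 3 lower past it and 6 lower by any amount; 44 further genes were kept, 1 lower past the fold and 24 by any amount. The medians were then -0.14 for licensing, -0.81 for DNA synthesis and 0.37 for the spindle, where Stmn1 alone is left and the sign turns. At 2-fold, 0 members were higher and 1 lower, and 1 further gene was higher and 0 lower. Among genes sharing no exon bases (chosen after seeing the data), 20 members had a median of -0.31; of 46 further genes, 2 were higher past the fold and 26 lower by any amount, and the medians were -0.06 for mitotic kinases, where the sign turns, and -0.09 for chromosomes. Except where fewer genes were kept, the cause was not tested. Depth limits the members with few fragments, and the missing spread between mice limits every value.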
